A study of Homo sapiens and Canis lupus familiaris with 27 samples.

Results

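The 29 genes described here encode the enzymes and regulators of cholesterol and fatty acid synthesis, and were taken by name from the first column of the gene count tables of the prostate carcinoma cell lines PC-3, LNCaP and CT1258. All 29 were among the 23708 names of the PC-3 and LNCaP tables, and 26 were among the 16028 names of the CT1258 table, where SREBF1, HMGCS1 and EBP were not found by name. Together the tables held 25300 names. After the filter on low counts, 29 of 13777 genes were tested in PC-3, 29 of 13156 in LNCaP and 25 of 9886 in CT1258, in which FADS2 had counts between 0 and 11 per sample and was not tested. Of the 29, 4 are regulators (SREBF1, SREBF2, SCAP and INSIG1), 17 form the sterol arm and 8 the lipogenic arm.

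Sterol regulatory element binding proteins (SREBPs) are transcription factors made as precursors in the membrane of the endoplasmic reticulum. When sterols are scarce, the escort protein SCAP carries them to the Golgi apparatus, where proteases release the part that enters the nucleus, and when sterols are plentiful INSIG proteins hold SCAP back. SREBP-2, encoded by SREBF2, acts mainly on genes of cholesterol synthesis, and SREBP-1, encoded by SREBF1, mainly on genes of fatty acid synthesis. In prostate carcinoma cells the lipogenic genes are known to be highly active and to respond to androgens.

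PC-3 is a human line from a bone metastasis, LNCaP is a human androgen-sensitive line, and CT1258 is 1 canine prostate carcinoma line. Cells of each line received 15 µM PDA-66, an indolylmaleimide that disturbs microtubules, for 12 h or 24 h, or 0.15% of the solvent DMSO, and the DMSO samples carry the label 24 h only, so the 12 h samples had no solvent control of their own time. PC-3 cells grew in DMEM/Ham's F-12, LNCaP cells in an RPMI medium and CT1258 cells in medium 199, all with serum, which itself brings lipoproteins to the cells. The 27 samples made 9 groups of 3 biological replicates, and 26 had counts, since 1 PC-3 control (replicate 1) had been excluded by the authors. For 2 of the PC-3 12 h samples, called P12-1 and P12-2 here, the labels give the group but not the number. Line and medium cannot be told apart, nor, for CT1258, species and annotation, so levels are compared within a line or between the human lines only.

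Total counts were between 14650839 and 18091755 in PC-3 samples and between 11923105 and 14741883 in LNCaP samples. In CT1258 they were between 19909616 and 20976950 in DMSO and between 7203534 and 8325867 after PDA-66, a ratio of the means of 2.64. Some libraries stood apart. LNCaP PDA-66 12 h replicate 2 lay outside the range of all other LNCaP samples for 21 of the 29 genes (72.4%, against 69.9% of all genes tested), and CT1258 DMSO replicate 2 did so for 18 of 25 (72.0%, against 54.5%). LNCaP DMSO replicate 2 was outside for 16 of 29 (55.2%, against 37.3%), 15 of them below (51.7%, against 18.2%). The pair of PC-3 controls differed, with replicate 2 above replicate 3 for 26 of the 29 genes (89.7%, against 50.3% of all genes tested). The counts of calls, and the values that these libraries moved most, are given with and without them. Levels are given as CPM, counts scaled to the normalized library size of each sample. All 6 luminal prostate markers were present in LNCaP (summed level 2579 to 3526 CPM). PC-3 had 2 of 6 at 1 CPM or more, with KLK2 at 0 in every sample. In CT1258 5 of the 6 were listed and 2 had a mean over all samples of 1 CPM or more (sum 4.54 to 15.5 CPM), with TMPRSS2 at 0, and EPCAM, the only epithelial marker listed there, was at 0 to 0.262 CPM. The summed fibroblast markers moved with treatment in PC-3 (42.9 to 65.4 CPM in DMSO, 10.3 to 22.2 CPM after PDA-66, 2 of 4 markers present), in CT1258 (83.3 to 89.3 against 10.7 to 26.0 CPM, 1 of 2 listed present) and in the LNCaP library named above (126 CPM against 19.0 in the lowest 12 h sample). The summed immune markers were 15.2 to 20.6 CPM in PC-3 controls and 2.70 to 3.85 CPM after PDA-66. Of these LYZ was at 1.30 to 19.4 CPM, PTPRC and CD79A at no more than 1.13 and 1.74 CPM, and CD3E at or near 0. The endothelial sum in LNCaP, nearly all VWF, was 22.9 to 40.2 CPM in DMSO and 4.85 to 14.6 CPM after PDA-66. In PC-3 the luminal sum, nearly all HOXB13, was 754 to 814 CPM in DMSO, 249.3 to 266 CPM at 12 h and 412 to 455 CPM at 24 h. Their part in the results was not tested.

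More of the genes fell than rose in CT1258, a few rose and a few fell in PC-3, and none was called in LNCaP. A gene was called changed when its Benjamini-Hochberg adjusted p over all genes tested was under 0.001 in the edgeR quasi-likelihood test, and changes are given as log2 fold changes against DMSO ± standard error. In PC-3, 2 of 29 genes rose and 5 fell after 12 h, while 13.0% of all genes tested rose and 14.6% fell. After 24 h 2 rose and 2 fell, against 8.88% and 10.5% of all genes. Without PC-3 DMSO replicate 2, 5 rose and 5 fell at 12 h (all genes 15.4% and 15.5%) and 4 and 3 at 24 h (all genes 12.1% and 12.2%). With PC-3 DMSO replicate 3 left out instead, 0 rose and 9 fell at 12 h (all genes 10.9% and 12.9%) and 1 and 5 at 24 h (all genes 7.26% and 9.07%). In CT1258, 2 of 25 genes rose and 11 fell after 12 h (all genes 22.2% and 22.1%), and after 24 h none rose and 16 fell (all genes 16.6% and 17.2%), so the share that fell was above that of all genes. The edgeR count of 0 that rose at 24 h became 3 at adjusted p under 0.05 (all genes 30.6%), and 23 of the 25 had an unadjusted p under 0.05 in either direction (all genes 65.8%). Without CT1258 DMSO replicate 2, 4 rose and 13 fell at 12 h (all genes 28.1% and 27.9%) and 0 and 18 at 24 h (all genes 23.1% and 23.5%).

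In LNCaP, none of the 29 genes was called in either direction at 12 h (all genes 0% and 0.00760%) or at 24 h (all genes 0%). The authors reported changed LNCaP genes at both times with edgeR at the same threshold, far more than were called here. The absence of calls among the 29 thus holds for this fit. At an unadjusted p under 0.05, 10 genes passed at 12 h and 9 at 24 h by the edgeR quasi-likelihood test (all genes 30.0% and 19.8%). Of the other tools, limma voom with sample quality weights called 8 higher and 1 lower at 12 h (all genes 6.77% and 7.15%) and 10 higher at 24 h (all genes 5.56%). The edgeR exact test called 0 at 12 h and 6 higher at 24 h (all genes higher 4.80% at 24 h), DESeq2 1 higher at 12 h (all genes 2.62%) and 0 at 24 h, and the edgeR likelihood ratio test 0 at both times. At adjusted p under 0.05, EBP and ACAT2 rose and TM7SF2 fell at 12 h (all genes 4.52% and 4.62%), and no gene passed at 24 h (all genes 1.35% and 1.57%). None of the 29 passed at 12 h without LNCaP DMSO replicate 3, without any single 24 h replicate, or with the replicate number as a block. Between replicates, the biological coefficient of variation was 0.24 in LNCaP, against 0.0971 in PC-3 and 0.1 in CT1258. Without LNCaP PDA-66 12 h replicate 2, FADS1 rose and TM7SF2 fell at 12 h (all genes 1.21% and 0.742%) and FADS1 rose at 24 h (all genes 0.405%) at adjusted p under 0.001, and at adjusted p under 0.05 8 genes rose and 1 fell at 12 h (all genes 14.1% and 15.0%) and 13 rose at 24 h (all genes 13.5%). Without LNCaP DMSO replicate 2 no gene passed at adjusted p under 0.05 (all genes 1.12% higher and 1.13% lower at 12 h, 0.0376% higher at 24 h) or under 0.001 (all genes 0%), and 6 genes at 12 h and 5 at 24 h had an unadjusted p under 0.05 (all genes 19.2% and 13.5%). The changes of EBP, ACAT2 and TM7SF2 at 12 h were then 1.72 (adjusted p = 0.153), 0.67 (adjusted p = 0.134) and -0.74 (adjusted p = 0.0899) in the edgeR test. Since RNA came from whole cultures, fewer cells with a transcript and less of it per cell cannot be told apart.

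**Figure D1:**
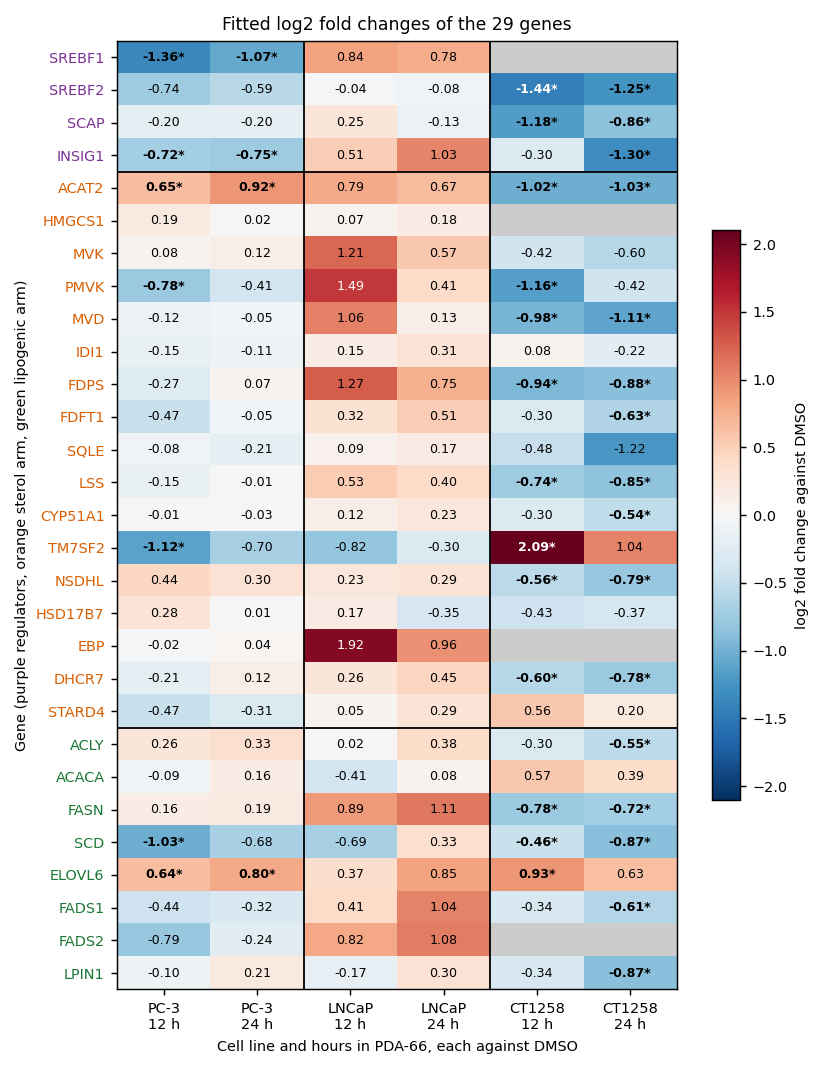
Log2 fold change against DMSO of each of the 29 genes (rows, grouped as regulators, sterol arm and lipogenic arm) after 12 h and 24 h of PDA-66 in PC-3, LNCaP and CT1258 (columns), with genes called at adjusted p under 0.001 marked. CT1258 shows 11 genes lower at 12 h and 16 at 24 h, LNCaP has no call, and PC-3 has calls in both directions.

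The promoters of these genes are where the SREBPs bind, together with NF-Y, which binds CCAAT, and Sp1, which binds GGGCGG. RefSeq promoters (GRCh38.p14, 250 bases before to 50 after the start) were matched for 25 of the 29 human genes, without ACAT2, FDFT1, SQLE and FASN. On both strands, TCACNCCAC, a form of the sterol regulatory element, was found in 1 of the 25, SREBF2, with its first base 133 bases before the start, against 1.13% of all 35116 promoters and 1.07% of the 9989 promoters of genes tested in PC-3. CCAAT was found in 15 of 25 (60.0%, against 34.6% of all promoters and 36.8% of those of genes tested), namely in 11 of 14 sterol-arm, 2 of 7 lipogenic and 2 of 4 regulator promoters. GGGCGG was found in 23 of 25 (92.0%, against 45.0% and 69.4%), and CACGTG, an E-box, in 3 of 25 (12.0%, against 7.26% and 9.99%). Such a match is a description of the letters, no motif searched contains another, and matches of different motifs could share bases. Other forms of the sterol regulatory element and other positions were not searched, so a gene without this match may still have one. Shown 5′ to 3′ are the 250 bases before the start of SREBF2, the gene with the TCACNCCAC match, of the SREBP target INSIG1, of 2 sterol-arm genes with 3 CCAAT boxes each (MVD and FDPS), and of 2 lipogenic genes that moved in opposite directions in PC-3 (SCD and ELOVL6). TCACNCCAC and CCAAT matches of either strand are in capitals. They lie at chr22:41832855-41833104 (plus strand), chr7:155297628-155297877 (plus strand), chr16:88663092-88663341 (minus strand), chr1:155308616-155308865 (plus strand), chr10:100346983-100347232 (plus strand) and chr4:110198616-110198865 (minus strand).
SREBF2: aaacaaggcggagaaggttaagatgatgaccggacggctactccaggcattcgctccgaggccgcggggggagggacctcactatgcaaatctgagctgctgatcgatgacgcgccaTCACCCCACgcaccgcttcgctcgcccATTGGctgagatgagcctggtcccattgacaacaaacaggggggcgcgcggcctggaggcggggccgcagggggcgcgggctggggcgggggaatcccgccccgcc
INSIG1: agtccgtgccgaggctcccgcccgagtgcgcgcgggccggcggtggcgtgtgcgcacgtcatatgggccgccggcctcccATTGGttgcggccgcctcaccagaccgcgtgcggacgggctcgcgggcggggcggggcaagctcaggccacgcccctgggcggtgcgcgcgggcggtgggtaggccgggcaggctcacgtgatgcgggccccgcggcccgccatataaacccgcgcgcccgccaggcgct
MVD: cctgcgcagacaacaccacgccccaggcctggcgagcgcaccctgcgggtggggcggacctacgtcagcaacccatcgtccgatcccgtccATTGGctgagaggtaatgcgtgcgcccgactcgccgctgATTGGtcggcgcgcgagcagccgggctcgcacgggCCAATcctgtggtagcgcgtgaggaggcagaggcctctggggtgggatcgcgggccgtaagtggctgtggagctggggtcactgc
FDPS: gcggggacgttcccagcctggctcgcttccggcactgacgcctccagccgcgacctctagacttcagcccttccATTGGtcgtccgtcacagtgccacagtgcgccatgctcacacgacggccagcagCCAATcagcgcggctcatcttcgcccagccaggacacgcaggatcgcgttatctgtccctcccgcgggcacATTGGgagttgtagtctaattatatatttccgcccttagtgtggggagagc
SCD: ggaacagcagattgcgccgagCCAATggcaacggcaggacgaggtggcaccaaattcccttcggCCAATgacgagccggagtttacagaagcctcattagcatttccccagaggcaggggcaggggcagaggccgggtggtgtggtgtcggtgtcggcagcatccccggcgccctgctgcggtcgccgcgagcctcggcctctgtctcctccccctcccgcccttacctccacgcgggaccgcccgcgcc
ELOVL6: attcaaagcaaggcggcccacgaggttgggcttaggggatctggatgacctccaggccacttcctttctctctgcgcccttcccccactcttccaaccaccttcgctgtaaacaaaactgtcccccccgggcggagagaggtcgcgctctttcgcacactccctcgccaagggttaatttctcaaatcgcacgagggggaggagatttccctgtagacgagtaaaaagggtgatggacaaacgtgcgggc

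Of the regulators, SREBF1 and INSIG1 fell in PC-3 at both times, and in CT1258 SREBF2 and SCAP fell at both times and INSIG1 at 24 h. SREBF1 was at 219 and 149 CPM in the PC-3 controls, at 71.3, 71.0 and 73.6 CPM after 12 h and at 80.3, 83.3 and 99.5 CPM after 24 h. Every treated sample was below both controls, and the change was -1.36 ± 0.14 (adjusted p = 4.32e-06) at 12 h and -1.07 ± 0.14 (adjusted p = 4.9e-05) at 24 h. INSIG1, the protein that retains SCAP and itself an SREBP target, was at 67.4 and 61.6 CPM in DMSO, 40.7, 36.9 and 40.0 CPM at 12 h and 34.8, 41.5 and 38.5 CPM at 24 h in PC-3. Again every treated sample was below both controls, while the 12 h and 24 h samples overlapped, with changes of -0.72 ± 0.11 (adjusted p = 7.89e-05) and -0.75 ± 0.11 (adjusted p = 8.15e-05). With the replicate number as a block, the 24 h call of INSIG1 was lost, as was that of ELOVL6. That fit also left out the 12 h samples, so few samples remained to estimate the spread.

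SREBF2 was at 225 and 135 CPM in the PC-3 controls, 96.4, 115 and 112 CPM at 12 h and 111, 115 and 135 CPM at 24 h. The controls differed more from each other than the lower one did from the treated samples, the treated samples were at or below the lower one, and the changes of -0.74 ± 0.17 (adjusted p = 0.00226) and -0.59 ± 0.17 (adjusted p = 0.0119) were not called. Without control replicate 3 they were called, at -1.06 ± 0.12 (adjusted p = 9.28e-06) and -0.89 ± 0.12 (adjusted p = 6.17e-05), and without control replicate 2 they were -0.32 ± 0.12 (adjusted p = 0.0407) and -0.16 ± 0.12 (adjusted p = 0.288). SCAP was at 129 and 97.6 CPM in the PC-3 controls, 91.0, 105 and 99.6 CPM at 12 h and 89.6, 95.3 and 111 CPM at 24 h, with overlapping groups and changes of -0.20 and -0.20 that were not called.

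In CT1258, SREBF2 was at 461, 500.4 and 442 CPM in DMSO, 167, 169.8 and 179 CPM at 12 h and 217, 181 and 190.0 CPM at 24 h. Its level in every treated sample was under that in every control, with changes of -1.44 ± 0.09 (adjusted p = 1.56e-08) and -1.25 ± 0.09 (adjusted p = 8.29e-08). SCAP was at 197, 229.8 and 195 CPM in DMSO, 86.2, 96.9 and 91.8 CPM at 12 h and 118, 109.6 and 114 CPM at 24 h, likewise without overlap, and changed by -1.18 ± 0.09 (adjusted p = 8.81e-08) and -0.86 ± 0.09 (adjusted p = 2.22e-06). INSIG1 was at 380.2, 460.3 and 359 CPM in DMSO, 329, 335 and 311 CPM at 12 h and 165, 157 and 164 CPM at 24 h. It was thus little below the controls at 12 h, where the change of -0.30 ± 0.09 (adjusted p = 0.0109) was not called, and far below them at 24 h, at -1.30 ± 0.10 (adjusted p = 1.09e-07). The change between the times was -1.0 ± 0.10 (adjusted p = 5.27e-05), the only call of the 25 genes between 24 h and 12 h in CT1258 (all genes 2.13%). Without CT1258 DMSO replicate 2, which is in neither group of that comparison but in the shared fit, 6 genes were called (all genes 13.6%), with SCAP higher and INSIG1, IDI1, FDFT1, SCD and LPIN1 lower at 24 h than at 12 h.

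In LNCaP, SREBF1 was at 308, 156 and 285 CPM in DMSO, 273, 759.8 and 307 CPM at 12 h and 447, 398 and 438 CPM at 24 h. INSIG1 was at 146, 62.9 and 80.5 CPM in DMSO, 164, 109 and 138 CPM at 12 h and 192, 204 and 196 CPM at 24 h. For both genes the 24 h samples were above all controls and the 12 h samples overlapped them, and neither was called, at 0.78 ± 0.39 (adjusted p = 0.306) and 1.03 ± 0.29 (adjusted p = 0.0865) after 24 h. Without LNCaP PDA-66 12 h replicate 2, which is in neither group of that comparison but in the shared fit, the 24 h changes were 0.78 ± 0.20 (adjusted p = 0.0183) and 1.03 ± 0.24 (adjusted p = 0.0123). Without LNCaP DMSO replicate 2 instead, neither gene passed at adjusted p under 0.05. SREBF2 was at 339, 304 and 469.9 CPM in DMSO, 261, 539 and 284 CPM at 12 h and 359.9, 342 and 348 CPM at 24 h. SCAP was at 108, 91.5 and 122 CPM in DMSO, 84.0, 200.5 and 96.5 CPM at 12 h and 104, 90.2 and 97.6 CPM at 24 h. Groups overlapped for both, and the largest change of either was 0.25 for SCAP at 12 h, where replicate 2 was far above the rest. Without that library the 12 h changes turned to -0.24 ± 0.13 (adjusted p = 0.194) for SCAP and were -0.44 ± 0.16 (adjusted p = 0.0593) for SREBF2.

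**Figure D2:**
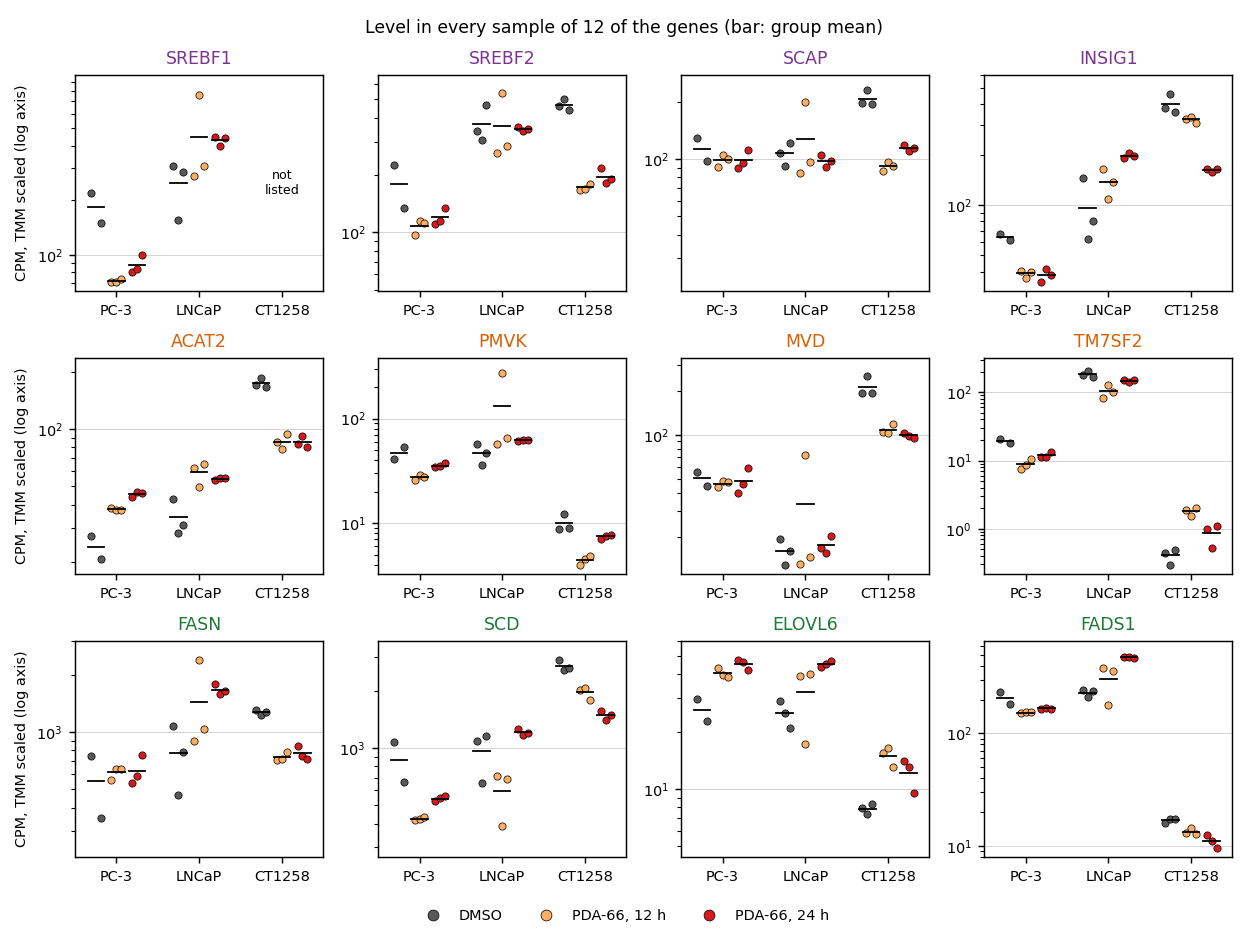
Level in CPM (log axis) of 12 of the 29 genes in every sample, by cell line and group, with 1 point per sample and a bar at each group mean. In CT1258 the treated samples of SREBF2, SCAP, ACAT2 and MVD lie under all controls, while ELOVL6 lies above them.

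The genes of the mevalonate pathway, from acetyl-CoA to farnesyl diphosphate, fell in CT1258 for 4 of the 6 tested at 12 h and 3 at 24 h (all genes 22.1% and 17.2%). Of 7 in PC-3, 1 rose and 1 fell at 12 h (all genes 13.0% and 14.6%) and 1 rose at 24 h (all genes 8.88%), shares close to those of all genes. ACAT2 encodes the cytosolic thiolase of the first step. In PC-3 it was at 27.3 and 20.8 CPM in DMSO, 38.3, 37.4 and 37.6 CPM at 12 h and 44.1, 46.6 and 45.9 CPM at 24 h. The treated samples were above both controls, and ACAT2 rose by 0.65 ± 0.12 (adjusted p = 0.00049) and 0.92 ± 0.12 (adjusted p = 4.81e-05). The 12 h call was lost, with an adjusted p of up to 0.00259, without PC-3 DMSO replicate 3, P12-1, P12-2, PDA-66 12 h replicate 3 or PDA-66 24 h replicate 2. In CT1258 ACAT2 was at 171, 185 and 166 CPM in DMSO, 85.0, 78.1 and 94.5 CPM at 12 h and 83.1, 91.3 and 80.7 CPM at 24 h. There the treated samples were under all controls, and ACAT2 fell, with changes of -1.02 ± 0.09 (adjusted p = 3.81e-07) and -1.03 ± 0.09 (adjusted p = 6.38e-07). In LNCaP it was at 42.9, 28.5 and 31.3 CPM in DMSO, 62.5, 49.6 and 65.2 CPM at 12 h and 53.9, 55.1 and 54.9 CPM at 24 h, so all treated samples were above all controls, with changes of 0.79 ± 0.19 (adjusted p = 0.035) and 0.67 ± 0.19 (adjusted p = 0.09).

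PMVK, the phosphomevalonate kinase, was at 41.5 and 52.9 CPM in the PC-3 controls, 26.0, 28.5 and 27.8 CPM at 12 h and 34.0, 35.0 and 37.2 CPM at 24 h, and changed at 12 h by -0.78 ± 0.12 (adjusted p = 9.02e-05). In CT1258 it was at 8.73, 12.1 and 9.04 CPM in DMSO, 3.996, 4.56 and 4.81 CPM at 12 h and 7.12, 7.48 and 7.73 CPM at 24 h, and changed by -1.16 ± 0.18 (adjusted p = 4.75e-05) at 12 h and, without a call, by -0.42 ± 0.16 (adjusted p = 0.0351) at 24 h. In both lines the 12 h samples were the lowest and the 24 h samples lay between them and the controls. In LNCaP PMVK was at 56.9, 36.2 and 46.5 CPM in DMSO, 56.6, 269.9 and 64.9 CPM at 12 h and 61.3, 62.2 and 61.8 CPM at 24 h. The 12 h mean rested on replicate 2, and the change of 1.49 became 0.39 ± 0.16 (adjusted p = 0.0929) without it.

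MVD, the mevalonate decarboxylase, was at 193, 254 and 193 CPM in the CT1258 controls, 104, 102 and 119 CPM at 12 h and 103, 98.8 and 94.7 CPM at 24 h. No treated sample reached a control, and the changes were -0.98 ± 0.11 (adjusted p = 3.24e-06) and -1.11 ± 0.11 (adjusted p = 2.03e-06). In the human lines it was not called, with levels of 40.1 to 59.0 CPM in PC-3 and 12.8 to 72.8 CPM in LNCaP, where the highest was 12 h replicate 2. FDPS, the farnesyl diphosphate synthase, fell in CT1258 from 156 to 215 CPM to 83.5 to 109 CPM, with changes of -0.94 ± 0.13 (adjusted p = 1.86e-05) and -0.88 ± 0.13 (adjusted p = 4.63e-05), and was not called in PC-3 (-0.27 and 0.07) or LNCaP (1.27 and 0.75). The 12 h value in LNCaP was 0.66 ± 0.15 (adjusted p = 0.00973) without 12 h replicate 2. HMGCS1, the HMG-CoA synthase, had 98.8 to 152 CPM in PC-3 and 73.8 to 163 CPM in LNCaP and was not called, though without PC-3 control replicate 2 it was called at 12 h, at 0.53 ± 0.10 (adjusted p = 0.000733). The mevalonate kinase MVK and the isomerase IDI1 were called in no line, with MVK at -0.60 and IDI1 at -0.22 after 24 h in CT1258, though MVK was called there without CT1258 DMSO replicate 2, at -0.43 ± 0.08 (adjusted p = 0.000127).

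The enzymes from squalene to cholesterol fell in CT1258 at 24 h for 5 of the 8 tested there (all genes 17.2%), and 1 of 9, TM7SF2, was called in PC-3, lower at 12 h (all genes 14.6%). TM7SF2, a sterol reductase of the endoplasmic reticulum, was at 20.4 and 18.4 CPM in the PC-3 controls, 7.61, 8.62 and 10.6 CPM at 12 h and 11.3, 11.4 and 13.2 CPM at 24 h. All treated samples were lower than both controls, with the lowest at 12 h, and the change was -1.12 ± 0.15 (adjusted p = 3.59e-05) at 12 h and -0.70 ± 0.15 (adjusted p = 0.00165) at 24 h, the latter not called. In LNCaP it was far more abundant, at 177, 203 and 169 CPM in DMSO, 83.1, 127 and 100.01 CPM at 12 h and 149.8, 144 and 151 CPM at 24 h. Its treated samples were again under all controls, and the change was -0.82 ± 0.18 (adjusted p = 0.0236) at 12 h, or -0.99 ± 0.12 (adjusted p = 0.000654) without 12 h replicate 2. In CT1258 TM7SF2 had few counts, at 0.446, 0.298 and 0.497 CPM in DMSO, 1.86, 1.56 and 2.00 CPM at 12 h and 0.982, 0.525 and 1.09 CPM at 24 h. These are 6 to 10 counts, 13 to 15 counts and 4 to 8 counts, and the 12 h change of 2.09 ± 0.36 (adjusted p = 0.000128) was not called without CT1258 PDA-66 12 h replicate 3 (adjusted p = 0.00116).

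In CT1258 the lanosterol synthase LSS changed by -0.74 ± 0.09 (adjusted p = 6.75e-06) and -0.85 ± 0.09 (adjusted p = 3.75e-06), and DHCR7, which catalyses a last step to cholesterol, by -0.60 ± 0.10 (adjusted p = 0.000124) and -0.78 ± 0.10 (adjusted p = 1.96e-05). NSDHL, a sterol dehydrogenase, changed by -0.56 ± 0.12 (adjusted p = 0.000855) and -0.79 ± 0.12 (adjusted p = 8.15e-05). The 12 h calls of DHCR7 and NSDHL were among those lost without single libraries: DHCR7 without CT1258 PDA-66 12 h replicate 1 or 3 (adjusted p up to 0.0014), and NSDHL without CT1258 PDA-66 12 h replicate 1 or 2, any 24 h replicate, or DMSO replicate 1 or 3 (up to 0.00838). The squalene synthase FDFT1 and the lanosterol demethylase CYP51A1 fell at 24 h and were not called at 12 h, with -0.63 ± 0.09 (adjusted p = 3.69e-05) and -0.54 ± 0.08 (adjusted p = 5.59e-05). All 5 of these enzymes were below every control in each 24 h sample.

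SQLE, the squalene epoxidase, was at 3.47, 2.69 and 3.53 CPM in CT1258 DMSO, 1.60, 2.76 and 2.54 CPM at 12 h and 1.72, 1.05 and 1.36 CPM at 24 h, which are 8 to 71 counts. All 24 h samples were below every control and overlapped the 12 h samples, and the change of -1.22 ± 0.28 (adjusted p = 0.0018) was not called. Without CT1258 DMSO replicate 2 it was, at -1.34 ± 0.28 (adjusted p = 0.000258). In PC-3 SQLE was at 65.2 to 92.2 CPM and in LNCaP at 64.1 to 105 CPM, with changes between -0.21 and 0.17. EBP, a sterol isomerase, showed the largest change of the sterol arm in LNCaP, at 62.3, 31.4 and 38.9 CPM in DMSO, 84.9, 320.0 and 96.1 CPM at 12 h and 87.6, 90.2 and 79.9 CPM at 24 h. All treated samples were above all controls, with 12 h replicate 2 far above the rest and the 12 h and 24 h groups overlapping, and the change of 1.92 ± 0.48 (adjusted p = 0.0395) at 12 h was 1.03 ± 0.22 (adjusted p = 0.00732) without it. In PC-3 EBP was at 93.6 to 109 CPM and was not called. HSD17B7, a sterol ketone reductase, and STARD4, a carrier of cholesterol between membranes, were called in no line, at 5.64 to 10.7 CPM and 15.5 to 27.2 CPM in CT1258. Without CT1258 DMSO replicate 2, STARD4 rose at 12 h, by 0.71 ± 0.10 (adjusted p = 1.22e-06). In PC-3 STARD4 changed at 12 h by -0.47, and it was called without control replicate 3, at -0.85 ± 0.15 (adjusted p = 0.000357), but was at 0.06 ± 0.16 (adjusted p = 0.752) without control replicate 2.

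Of the lipogenic arm, SCD fell in PC-3 at 12 h and in CT1258 at both times, and ELOVL6 rose in both lines. SCD, the stearoyl-CoA desaturase that makes monounsaturated fatty acids, was at 1078 and 659.8 CPM in the PC-3 controls, 417, 425 and 436 CPM at 12 h and 524, 546 and 558 CPM at 24 h. The treated samples were under both controls, and the change was -1.03 ± 0.15 (adjusted p = 7.65e-05) at 12 h and -0.68 ± 0.15 (adjusted p = 0.0024) at 24 h. Without control replicate 2 the 12 h change shrank to -0.62 ± 0.08 (adjusted p = 1.65e-05). In CT1258 SCD was at 2891, 2584 and 2637 CPM in DMSO, 2028, 2079 and 1796 CPM at 12 h and 1564, 1397 and 1491 CPM at 24 h. Its groups were ordered without overlap from DMSO to 12 h to 24 h, with changes of -0.46 ± 0.09 (adjusted p = 0.000458) and -0.87 ± 0.09 (adjusted p = 3.25e-06), and the 12 h call was lost (adjusted p up to 0.00295) without any 12 h replicate, 24 h replicate 3, or DMSO replicate 1 or 3. In LNCaP SCD was at 1087, 652 and 1152 CPM in DMSO, 709, 391 and 689 CPM at 12 h and 1264, 1171 and 1201 CPM at 24 h, where the 24 h samples were the highest, at 0.33 ± 0.26 (adjusted p = 0.545).

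ELOVL6 elongates palmitate to stearate. It was at 29.6 and 22.7 CPM in the PC-3 controls, 43.0, 39.9 and 39.0 CPM at 12 h and 47.7, 46.6 and 42.0 CPM at 24 h, and rose by 0.64 ± 0.13 (adjusted p = 0.000788) and 0.80 ± 0.13 (adjusted p = 0.000204). In CT1258 it was at 7.89, 7.36 and 8.35 CPM in DMSO, 15.5, 16.4 and 13.0 CPM at 12 h and 13.99, 13.0 and 9.50 CPM at 24 h, and rose at 12 h by 0.93 ± 0.15 (adjusted p = 9.28e-05), while the 24 h change of 0.63 ± 0.16 (adjusted p = 0.00296) was not called. In both lines all treated samples were above all controls. The PC-3 12 h call was lost without control replicate 3 or any other 12 h or 24 h library taken singly (adjusted p up to 0.00592), the 24 h call without control replicate 3 or 24 h replicate 1 or 2 (up to 0.00139), and the CT1258 call without 12 h replicate 2 (adjusted p = 0.00108). In LNCaP ELOVL6 was at 28.9, 25.2 and 20.8 CPM in DMSO, 39.2, 17.3 and 40.2 CPM at 12 h and 43.5, 45.2 and 46.7 CPM at 24 h. Except for 12 h replicate 2, its treated samples were above the controls, with changes of 0.37 ± 0.29 (adjusted p = 0.412) and 0.85 ± 0.29 (adjusted p = 0.141), the latter 0.86 ± 0.12 (adjusted p = 0.00163) without that library. Without LNCaP DMSO replicate 2 instead, ELOVL6 did not pass at adjusted p under 0.05.

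FASN, the fatty acid synthase, was the lipogenic gene with the largest change in LNCaP, at 1077, 467 and 787 CPM in DMSO, 901, 2390.3 and 1037 CPM at 12 h and 1792, 1579.7 and 1648 CPM at 24 h. The 24 h samples were above all controls, with 1.11 ± 0.39 (adjusted p = 0.148), or 1.11 ± 0.23 (adjusted p = 0.00713) without 12 h replicate 2. Without LNCaP DMSO replicate 2 instead, FASN did not pass at adjusted p under 0.05. In CT1258 FASN was at 1308, 1236 and 1272 CPM in DMSO, 717, 721 and 783 CPM at 12 h and 848, 749.8 and 721 CPM at 24 h. There it fell in every treated sample, with -0.78 ± 0.09 (adjusted p = 2.53e-06) and -0.72 ± 0.09 (adjusted p = 9.07e-06). In PC-3 it was at 750.2 and 351 CPM in DMSO, 562, 642 and 641 CPM at 12 h and 539.7, 586 and 755 CPM at 24 h. The treated samples lay between or next to the controls, and the change of 0.16 at 12 h was 0.82 ± 0.15 (adjusted p = 0.000529) without control replicate 2 and -0.28 ± 0.14 (adjusted p = 0.115) without control replicate 3.

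ACLY, the citrate lyase that supplies cytosolic acetyl-CoA, fell in CT1258 at 24 h, with -0.55 ± 0.07 (adjusted p = 2.63e-05), as did LPIN1, a phosphatidate phosphatase, with -0.87 ± 0.09 (adjusted p = 2.15e-06), and FADS1, a desaturase of polyunsaturated fatty acids, with -0.61 ± 0.13 (adjusted p = 0.000834). The FADS1 call was lost without any 12 h or 24 h replicate or without DMSO replicate 1 or 3 (adjusted p up to 0.0074) and with thinned DMSO counts. In PC-3 without control replicate 2, the ACLY change was 0.58 after 12 h. ACLY was there at 330.9 CPM in control replicate 2, at 222.2 CPM in control replicate 3 and at 317.3 to 337.9 CPM at 12 h, so this rise rested on replicate 3. FADS1 was at 242, 209.9 and 240.1 CPM in the LNCaP controls, 380.0, 180.3 and 359.7 CPM at 12 h and 477, 478 and 468 CPM at 24 h. Apart from 12 h replicate 2 the treated samples were above the controls, with 1.04 ± 0.25 (adjusted p = 0.0575) at 24 h, and without that library 0.68 ± 0.09 (adjusted p = 0.000984) at 12 h and 1.04 ± 0.09 (adjusted p = 0.000188) at 24 h. Without LNCaP DMSO replicate 2 instead, FADS1 passed at adjusted p under 0.05 at neither time. FADS2, its neighbour desaturase, was at 307 to 812 CPM in LNCaP DMSO and 1006 to 1154 CPM at 24 h, a change of 1.08 ± 0.32 (adjusted p = 0.097), and in PC-3 at 245 to 396 CPM in DMSO and 177 to 192 CPM at 12 h, a change of -0.79 ± 0.16 (adjusted p = 0.00101). Without PC-3 control replicate 3, FADS2 and FADS1 were called at 12 h, at -1.08 ± 0.11 (adjusted p = 3.86e-06) and -0.59 ± 0.08 (adjusted p = 5.37e-05). ACACA, the acetyl-CoA carboxylase of the cytosol, was called in no line and was at 0.57 ± 0.15 (adjusted p = 0.00343) at 12 h in CT1258, and was called there without CT1258 DMSO replicate 2, at 0.36 ± 0.06 (adjusted p = 3.44e-05).

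Set side by side, the sterol and lipogenic arms had medians of the same sign within LNCaP and within CT1258. The median log2 fold change of all genes tested lay between -0.011 and 0.026 in the 6 comparisons with DMSO. In PC-3 the median was -0.12 over the sterol arm and -0.09 over the lipogenic arm at 12 h, and -0.01 and 0.17 at 24 h. These values changed sign with the control used, from 0.09 without control replicate 2 to -0.26 without control replicate 3 for the sterol arm and from 0.21 to -0.33 for the lipogenic arm at 12 h, and from 0.13 to -0.13 and from 0.48 to -0.18 at 24 h. The 4 regulators in PC-3 were all below 0, with medians of -0.73 and -0.67. In LNCaP the sterol arm had medians of 0.26 and 0.31 and the lipogenic arm of 0.19 and 0.62, and at 24 h 25 of the 29 fitted changes were above 0, including all 8 lipogenic genes. In CT1258 the sterol arm had medians of -0.48 and -0.63, the lipogenic arm of -0.34 and -0.61 and the 3 regulators listed of -1.18 and -1.25. There 7 of 15 sterol genes fell at 12 h and 8 at 24 h, and 2 and then 5 of 7 lipogenic genes, against 22.1% and 17.2% of all genes, and the 2 of 7 lie close to that share. The 12 h and 24 h comparisons of a line share their DMSO samples. No test was made between the arms.

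**Figure D3:**
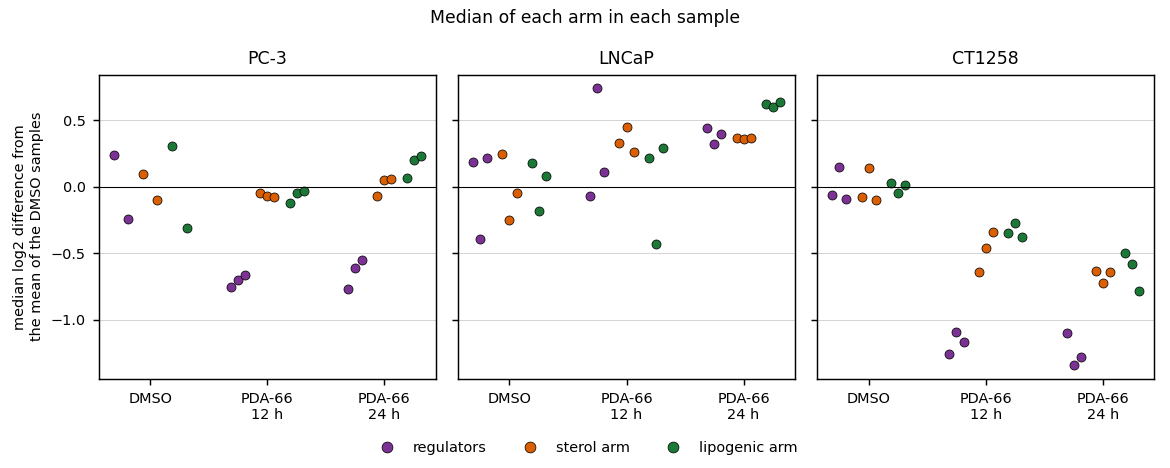
Median over the genes of each arm of log2(CPM + 0.5) minus its mean in DMSO, for every sample, by cell line and group, with 1 point per sample. The regulators and both arms lie below 0 in treated CT1258 samples, the PC-3 controls lie on either side of 0, and LNCaP PDA-66 12 h replicate 2 stands apart in the lipogenic arm at -0.43.

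Whether the lines responded differently was tested as an interaction, the log2 fold change in 1 line minus that in another, over the 11736 genes shared by the 3 tables and tested, 26 of them among the 29. The fit shared 1 spread per gene over lines that differ in it. The biological coefficient of variation was 0.24 in LNCaP, 0.0971 in PC-3 and 0.1 in CT1258. Adjusted p-values may thus be too small where LNCaP enters and too large for CT1258 minus PC-3. SREBF1, HMGCS1 and EBP could not be compared with CT1258 and were not in this fit, whereas FADS2 was. In CT1258 FADS2 had only 0 to 11 counts per sample, so its comparisons with that line rest on very few counts. At an adjusted p under 0.05, LNCaP minus PC-3 gave 7 genes higher and 0 lower at 12 h (all genes 9.76% and 9.80%) and 4 higher and 0 lower at 24 h (all genes 3.87% and 5.83%). Regardless of direction, 8 and 6 had an unadjusted p under 0.05 (all genes 33.7% and 23.5%), and DESeq2 and limma voom also gave 0 lower. The 7 at 12 h were INSIG1, MVK, PMVK, FDPS, FDFT1, FADS1 and FADS2, and the 4 at 24 h were INSIG1, SCD, FADS1 and FADS2. In LNCaP at 12 h replicate 2 was far above the others for MVK (31.9, 87.7 and 37.7 CPM), PMVK (56.6, 269.9 and 64.9 CPM) and FDPS (110, 296 and 117 CPM). For INSIG1 and FADS1 it was the lowest. INSIG1 differed by 1.76 ± 0.30 (adjusted p = 0.000447) at 24 h, the only one of the 26 under 0.001 for this pair and time (all genes 1.23%). At 12 h 11 genes differed without LNCaP PDA-66 12 h replicate 1 and 7, all higher, without LNCaP PDA-66 12 h replicate 2. Without PC-3 DMSO replicate 2, 5 differed, of which 1 was lower. At 24 h 2 differed without PC-3 DMSO replicate 2, without PC-3 PDA-66 24 h replicate 1 or without LNCaP DMSO replicate 2, and 8 without LNCaP PDA-66 12 h replicate 2.

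CT1258 minus PC-3 gave 2 genes higher and 4 lower at 12 h (all genes 15.1% and 15.0%) and 1 higher and 7 lower at 24 h (all genes 10.5% and 10.8%), which is 8 at 24 h in all and 5 without PC-3 DMSO replicate 3. ACAT2, which rose in PC-3 and fell in CT1258, differed by -1.65 ± 0.22 (adjusted p = 4.03e-06) and -1.94 ± 0.22 (adjusted p = 9.93e-07), and TM7SF2 by 3.23 ± 0.34 (adjusted p = 2.49e-07) at 12 h, on the few counts given above. These 2 genes were under 0.001 at 12 h (all genes 9.33%) and ACAT2 alone at 24 h (all genes 4.79%). NSDHL differed by -1.09 ± 0.23 (adjusted p = 0.00133), LPIN1 by -1.08 ± 0.22 (adjusted p = 0.00112) and ACLY by -0.87 ± 0.18 (adjusted p = 0.00126) at 24 h.

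CT1258 minus LNCaP gave 2 genes higher and 14 lower at 12 h (all genes 19.5% and 20.6%) and 1 higher and 16 lower at 24 h (all genes 11.1% and 9.98%). Under 0.001 at 12 h (all genes 12.8%) were SREBF2 (-1.34 ± 0.29), SCAP (-1.36 ± 0.28), ACAT2 (-1.76 ± 0.20), PMVK (-2.57 ± 0.53), FDPS (-2.14 ± 0.33) and, in the other direction, TM7SF2 (2.98 ± 0.33). At 24 h these were (all genes 3.44%) INSIG1 (-2.31 ± 0.28), ACAT2 (-1.67 ± 0.20), FDFT1 (-1.11 ± 0.20), DHCR7 (-1.20 ± 0.22), ACLY (-0.90 ± 0.17), FADS1 (-1.62 ± 0.27) and LPIN1 (-1.14 ± 0.21). Both arms and the regulators were thus among the genes with a lower response in the canine line, and ACAT2 was in the list at both times. With only the lines of a pair in the fit, CT1258 minus LNCaP gave 13 genes at 12 h and 16 at 24 h and CT1258 minus PC-3 16 and 17, so the order of the pairs by count depended on the fit. Without LNCaP PDA-66 12 h replicate 2 the counts were 2 and 16 at 12 h and 1 and 20 at 24 h, and the 12 h differences were -1.51 ± 0.24 for PMVK, -1.55 ± 0.19 for FDPS, -0.96 ± 0.21 for SREBF2 and -0.90 ± 0.17 for SCAP. Without LNCaP DMSO replicate 2 or without CT1258 DMSO replicate 2, those still under 0.001 were ACAT2, FDPS and TM7SF2 at 12 h and INSIG1, ACAT2 and FADS1 at 24 h, and the others named stayed under 0.05. The comparisons of responses share the samples of each line, so their counts are not independent of each other.

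**Figure D4:**
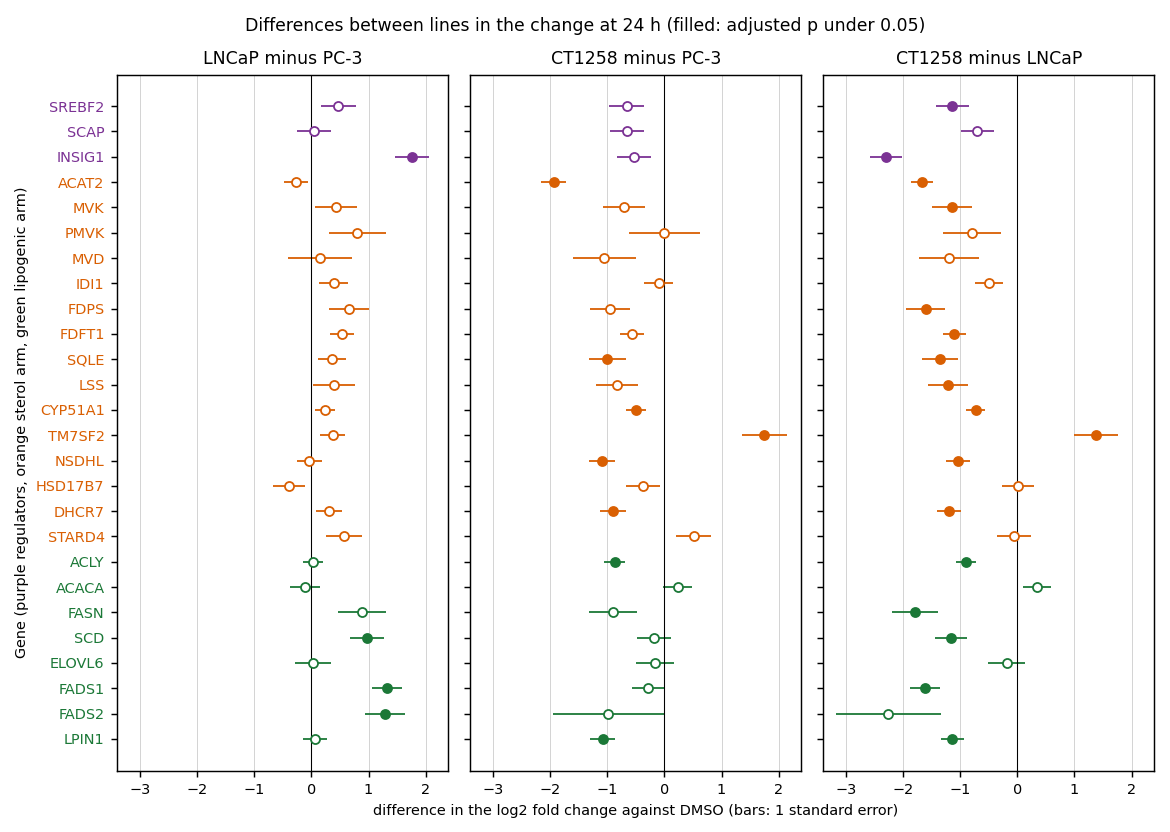
Difference in log2 fold change at 24 h between each pair of cell lines (LNCaP minus PC-3, CT1258 minus PC-3, CT1258 minus LNCaP) for the 26 genes in the joint fit, with standard errors as bars and filled points where the adjusted p was under 0.05. Filled points number 4, 8 and 17, and those of CT1258 minus LNCaP lie to the left of 0 for all but TM7SF2.

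Between 24 h and 12 h of PDA-66, none of the 29 genes was called in PC-3 or LNCaP by the edgeR quasi-likelihood test (all genes 1.41% and 0%), with 10 and 7 at an unadjusted p under 0.05 (all genes 24.5% and 6.36%). In PC-3 limma voom called 7 and the edgeR exact test 6, all higher at 24 h (all genes higher 8.50% and 5.45%), and DESeq2 and the likelihood ratio test 0. In LNCaP limma voom called 5 higher (all genes 0.920%) and the other 3 tools 0. At an adjusted p under 0.05, PMVK, FDPS, FDFT1 and FADS2 were higher at 24 h than at 12 h in PC-3 (all genes higher 5.59%), by 0.37 ± 0.11 (adjusted p = 0.0453), 0.34 ± 0.09 (adjusted p = 0.0242), 0.41 ± 0.11 (adjusted p = 0.0275) and 0.55 ± 0.15 (adjusted p = 0.0297). Without either PC-3 control from the shared fit, SCD and FADS2 were called higher at 24 h than at 12 h (all genes higher 1.90% without replicate 2 and 1.96% without replicate 3). All 8 lipogenic genes had a fitted change above 0 between the times in PC-3 (0.03 to 0.55) and in LNCaP (0.21 to 1.02), while in CT1258 6 of 7 were below 0 (-0.53 to 0.06).

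In DMSO, the lipogenic genes SCD and FASN had the highest levels of the 29 per length in both human lines. Per kilobase of annotated exon, SCD led with 168 ± 57.4 CPM per kilobase in PC-3 (SD, n = 2) and 183 ± 52.4 in LNCaP (SD, n = 3), followed by FASN with 60.1 ± 30.8 and 83.3 ± 32.8. The spread of FASN covered that of its next neighbour in each line, EBP with 55.9 ± 2.71 CPM per kilobase in PC-3 and ACLY with 79.1 ± 8.99 in LNCaP. HSD17B7 was the lowest in PC-3, at 2.67 ± 0.127, and MVK in LNCaP, at 2.5 ± 0.785. Between the lines, 4 of the 29 genes were called in a joint fit of the human samples, 3 higher and 1 lower in LNCaP, against 19.1% and 21.7% of the 15018 genes tested. TM7SF2 was higher in LNCaP by 3.21 ± 0.20 (adjusted p = 3.86e-10), the squalene synthase FDFT1 by 1.59 ± 0.20 (adjusted p = 1.94e-06) and ACACA by 1.05 ± 0.20 (adjusted p = 0.000181), and FDPS was lower, at -1.37 ± 0.30 (adjusted p = 0.000662). Without PC-3 DMSO replicate 3 the call of ACACA was lost (adjusted p = 0.00719), and that of FDPS without any of PC-3 DMSO replicates 2 and 3 or LNCaP DMSO replicates 2 and 3 (up to 0.00704). Without PC-3 DMSO replicate 3 only TM7SF2 and FDFT1 of the 29 were called. Line and medium cannot be told apart here.

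**Figure D5:**
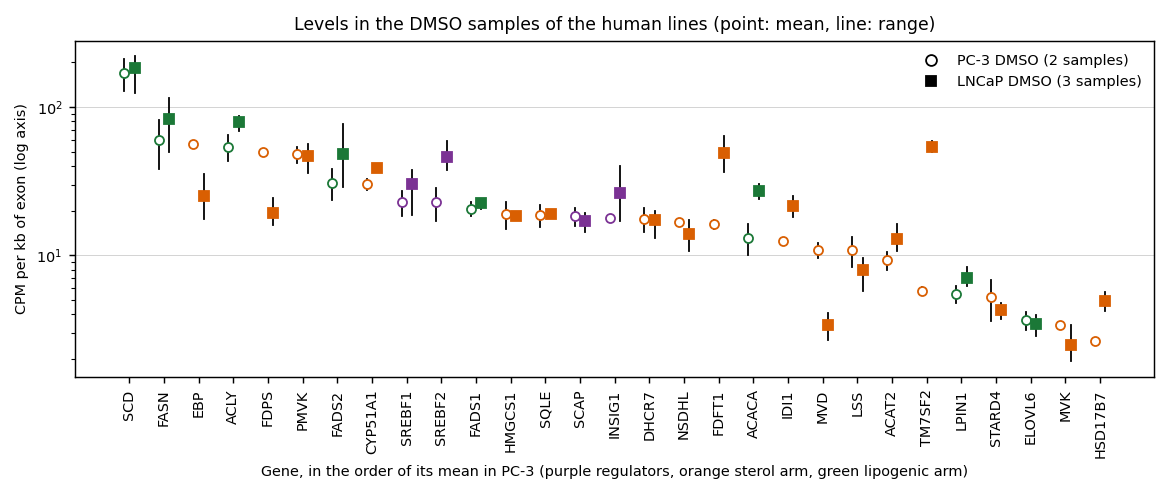
Mean level in DMSO of the 29 genes in CPM per kilobase of annotated exon (log axis) in PC-3 (n = 2) and LNCaP (n = 3), with a point at the mean and a line over the range of the samples. SCD is the highest in both lines and TM7SF2 differs most between them.

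Other genes of the same pathways were read from lists of further sterol enzymes (7 genes), SREBP processing and INSIG partners (7), further lipogenic enzymes (25) and sterol export and storage (9). In PC-3 the export and storage genes had 1 of 9 higher and 5 lower at each time, against 14.6% of all genes lower at 12 h and 10.5% at 24 h. The cholesterol exporters ABCA1 and ABCG1 fell at 12 h, with -1.69 ± 0.15 (adjusted p = 1.18e-06) and -1.44 ± 0.11 (adjusted p = 2.69e-07), and SOAT1, which esterifies cholesterol for storage, rose by 1.06 ± 0.12 (adjusted p = 7.8e-06). ABCA1 was at -1.48 ± 0.15 (adjusted p = 6.7e-06) after 24 h. Of 24 further lipogenic genes tested in PC-3, 2 rose and 4 fell at 12 h (all genes 13.0% and 14.6%) and 3 rose and 1 fell at 24 h (all genes 8.88% and 10.5%), shares near those of all genes. GPAM, the first acyltransferase of glycerolipid synthesis, rose by 1.23 ± 0.11 (adjusted p = 1.58e-06) and 1.08 ± 0.11 (adjusted p = 9.08e-06), while LPIN2 and the acetyl-CoA synthetase ACSS2 fell at 12 h, with -1.03 ± 0.10 (adjusted p = 2.32e-06) and -0.97 ± 0.11 (adjusted p = 7.81e-06). The highest fitted changes of this list, called or not, were above those of GPAM, at 2.07 at 12 h and 2.32 at 24 h, and are not reported here by name. Of the 7 processing genes, INSIG2 and RNF139 fell at 12 h, with -0.69 ± 0.13 (adjusted p = 0.000479) and -0.64 ± 0.11 (adjusted p = 0.000254), and INSIG2 again at 24 h. INSIG2 is the other INSIG protein, and RNF139 a ubiquitin ligase of the endoplasmic reticulum. None of the 7 further sterol enzymes was called in PC-3 by edgeR, with 4 at 12 h and 3 at 24 h at an unadjusted p under 0.05.

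In CT1258, where 22.2% of all genes rose and 22.1% fell at 12 h and 16.6% and 17.2% at 24 h, 3 of 8 export and storage genes tested fell at each time and none rose, with ABCA1 at -1.37 ± 0.21 (adjusted p = 5.42e-05) and -1.81 ± 0.22 (adjusted p = 9.39e-06) and the sterol-sensing receptor NR1H2 at -1.01 ± 0.09 (adjusted p = 4.86e-07) and -0.85 ± 0.09 (adjusted p = 4.05e-06). Of 21 further lipogenic genes 3 rose and 9 fell at 12 h, and 1 rose and 8 fell at 24 h. The largest falls at 12 h were in the glycerolipid genes AGPAT2, at -1.64 ± 0.15 (adjusted p = 5.29e-07), and PCYT2, at -1.32 ± 0.14 (adjusted p = 2.35e-06), and in MID1IP1, at -1.27 ± 0.14 (adjusted p = 2.72e-06), which aids the polymerization of acetyl-CoA carboxylase, while GPAM rose, with 0.85 ± 0.09 (adjusted p = 2.08e-06) and 0.67 ± 0.09 (adjusted p = 2.82e-05). Of 6 further sterol enzymes, GGPS1, the geranylgeranyl diphosphate synthase, rose, with 0.80 ± 0.14 (adjusted p = 0.000149) and 0.68 ± 0.14 (adjusted p = 0.000804); in all 1 rose and 2 fell at 12 h and 2 rose and 3 fell at 24 h. Of the 7 processing genes, MBTPS1, the protease that makes the first cut in SREBPs, changed by -0.50 ± 0.07 (adjusted p = 3.41e-05) and -0.36 ± 0.07 (adjusted p = 0.000693), while RNF139 rose at 12 h. In LNCaP none of the 46 genes of the 4 lists tested was called by edgeR, with 12 at 12 h and 5 at 24 h at an unadjusted p under 0.05, no larger a share than the 30.0% and 19.8% of all genes.

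Several of the 29 genes share exon bases with another gene in the human annotation (GRCh37), and whether counting used the strand is not given in the sources used here. On the same strand, CYP51A1 shared 68.2% of its exon bases with an overlapping gene model and EBP 36.4%. On the opposite strand, HMGCS1 shared 37.7% with a long noncoding RNA, FDPS 18.6% with RUSC1-AS1, ACAT2 17.2% with TCP1 and IDI1 15.0% with IDI2-AS1. FADS1 and FADS2 shared 4.79% and 4.64% of their exon bases with each other. The gene models of this annotation carry Ensembl identifiers, while the counts were made on RefSeq genes, so an overlapping model need not have been counted. These shares do not measure the error of a count, and how far the counts were affected was not tested.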

How the data were processed

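Poly(A)-selected RNA of the 3 cell lines was sequenced as single reads. The authors deposited whole-number read counts per gene, without normalization, which they obtained for the human lines with STAR 2.3.1s on hg19 and RefSeq genes and for CT1258 with BWA on the canine genome canFam3. The authors compared groups with edgeR 3.14.0, and how reads of several genes were counted is not given in the sources used here. The 29 genes and all lists were chosen with earlier results of these data known. Groups came from the sample labels. Each line was fitted on its own with its 3 groups sharing 1 spread per gene (edgeR 4.0.16 in R 4.3.3, filterByExpr, TMM, quasi-likelihood F test, Benjamini-Hochberg over all genes tested, threshold 0.001 as in the authors' methods), the standard error being the absolute log2 fold change over the square root of F. Differences in response were interactions in 1 fit over 9 groups (threshold 0.05), and DMSO levels a fit over the human samples. CPM were scaled to the library size of each sample multiplied by its TMM factor, not to its total counts. A value of 0.5 was added only where a log2 per sample was plotted. Alternatives used limma 3.58.1 and DESeq2 1.42.0, other normalizations, filters and thresholds, and fits without each sample. Tables and plots were made with Python 3.11.15, pandas 2.3.3 and matplotlib 3.10.9. Per-sample values are given for genes called with a log2 fold change of 1 or more in size against DMSO, for the regulators and for the largest change of an arm in a line. Of the other lists up to 3 called genes with the largest changes are named per list and line, and some further genes were named after their values were seen. Canine promoters were not used, and some genes of the other lists are not reported here by name. Tested on simulated counts with 200 genes changed by a log2 of 2, the fits found 196 in PC-3 (1 other called among 13599 genes), 149 in LNCaP (0 others, 13032 genes), 200 in CT1258 (2 others, 9830 genes) and 163 for the LNCaP and PC-3 interaction at 12 h (25 others, 11676 genes). In that 1 simulation of the interaction, the others were a larger share of the calls than the threshold of 0.05 allows.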

Additional observations from a re-analysis of the deposited data

Results flagged for a closer look

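The results below were listed because the response to PDA-66 differed between cell lines in a test of the difference itself (edgeR interaction, adjusted p), or, in 1 case, between the times. At adjusted p under 0.05, 7 of 26 genes differed between LNCaP and PC-3 at 12 h and 4 at 24 h, 6 between CT1258 and PC-3 at 12 h and 8 at 24 h, and 16 between CT1258 and LNCaP at 12 h and 17 at 24 h. Of all genes tested, 19.6%, 9.70%, 30.1%, 21.2%, 40.2% and 21.1% did so. The 6 of 26 for CT1258 and PC-3 at 12 h were thus a smaller share than that of all genes. The other counts with PC-3 lay only a few genes above the share of all genes. The single genes under 0.001 were INSIG1 for LNCaP minus PC-3 at 24 h (difference of log2 fold changes 1.76), ACAT2 (-1.65) and TM7SF2 (3.23) for CT1258 minus PC-3 at 12 h, and ACAT2 (-1.94) at 24 h. For CT1258 minus LNCaP at 12 h they were SREBF2 (-1.34), SCAP (-1.36), ACAT2 (-1.76), PMVK (-2.57), FDPS (-2.14) and TM7SF2 (2.98), and at 24 h INSIG1 (-2.31), ACAT2 (-1.67), FDFT1 (-1.11), DHCR7 (-1.20), ACLY (-0.90), FADS1 (-1.62) and LPIN1 (-1.14). Without LNCaP PDA-66 12 h replicate 2 the differences of PMVK and FDPS at 12 h were -1.51 and -1.55. INSIG1 in CT1258 differed between 24 h and 12 h by -1.0, lower at 24 h. Cell line, medium and, for CT1258, species and annotation cannot be told apart in these differences.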

How the results depend on the processing

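Of 434 changes of single genes, 9272 alternative values were computed. No value that was called in either setting changed sign, while 203 alternative values that were called in neither did, among them FASN in PC-3 and SCAP in LNCaP at 12 h. Their side of the threshold was kept by 8761, and 199 lost and 312 gained a call. The counts of genes called depended more on the settings, and the causes were not tested except where a stricter or looser threshold, or fewer samples, gives the change by construction. In PC-3 at 12 h the 7 calls became 12 by the likelihood ratio test, 11 by the exact test, 4 with only the 2 groups compared, 13 at adjusted p under 0.05 and 3 with a log2 fold change of 1 or more in size required as well, and at 24 h the 4 calls became 10 at 0.05 and 1 with that fold. Between 24 h and 12 h the 0 calls became 7 by limma voom, 6 by the exact test, 2 with only the 2 groups and 4 at 0.05. In LNCaP the 0 calls became 9 by limma voom, 1 by DESeq2 and 3 at 0.05 at 12 h, 10 by limma voom and 6 by the exact test at 24 h, and 5 by limma voom between the times. In CT1258 the 13 calls at 12 h became 22 at 0.05 and 5 with the fold added, the 16 at 24 h became 4 with the fold added, and the 1 between the times became 2 with library size only, 3 by the likelihood ratio test, 9 by limma voom, 3 by DESeq2, 4 with only the 2 groups, 7 by the exact test and 8 at 0.05. With the controls thinned to the depth of the treated samples CT1258 had 3 higher and 10 lower at 12 h and 0 and 16 at 24 h. The counts of differing responses at adjusted p under 0.001 were 0 and 1 for LNCaP minus PC-3 at 12 h and 24 h, 2 and 1 for CT1258 minus PC-3, and 6 and 7 for CT1258 minus LNCaP. The 4 for LNCaP minus PC-3 at 24 h were 8 by limma voom and 2 with only those lines, and for CT1258 minus PC-3 the 6 and 8 were 15 and 17 by limma voom and 16 and 17 with only those lines (13 and 16 for CT1258 minus LNCaP fitted so). The 4 calls between the DMSO groups were 7 by limma voom. Leaving out single samples gave 5 to 10, 3 to 7 and 0 to 2 calls in PC-3 (12 h, 24 h and between the times), 0 to 2, 0 to 1 and 0 to 0 in LNCaP, 10 to 17, 15 to 18 and 1 to 6 in CT1258, 5 to 11 and 2 to 8 differing responses for LNCaP minus PC-3, 5 to 7 and 5 to 10 for CT1258 minus PC-3, 13 to 20 and 15 to 21 for CT1258 minus LNCaP, and 2 to 4 between the DMSO groups. The sterol median in PC-3 ran from -0.26 to 0.09 at 12 h and -0.13 to 0.13 at 24 h, and the lipogenic median from -0.33 to 0.21 and -0.18 to 0.48. In LNCaP and CT1258 the medians kept their sign. Same-numbered samples did not clearly deviate together (correlations of deviations from -0.42 to 0.185). With at most 3 samples per group this cannot exclude a pairing by number. With the replicate number as a block PC-3, fitted without its 12 h samples, had 2 calls at 24 h in place of 4, CT1258 had 12, 15 and 1, and LNCaP 0. In PC-3 at 12 h the block was not possible, since fewer than 2 numbers were shared. The simulated counts held changes of a log2 of 2 alone, so the size of change that could be found at this depth was not tested below that.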
